A study of Mus musculus with 8 samples.

Results

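Glycolysis and glycogen metabolism was examined through 38 genes, taken by name from the pathway with earlier results of these data known, and all 38 were among the 14012 genes of the deposited table. They take glucose from its entry into the cell to lactate, or store it as glycogen and release it again. Of the 38, 12 were classed as the isoform typical of skeletal muscle, 10 as an isoform that other tissues use for the same step, and 16 as neither. Fbp2, Phka1 and Phkg1, of the 12, have no counterpart among the 38 genes. Gys1, muscle glycogen synthase, was placed among the 16.

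The counts came from quadriceps femoris (QF), a large and mostly fast thigh muscle, of 4 Grpel1 skm-/- mice and 4 Grpel1 flox/flox control littermates, with 1 library of polyadenylated RNA per animal. All mice carried the floxed Grpel1 allele, which encodes a co-chaperone of mitochondrial protein import. In the knockouts a tamoxifen-inducible Cre recombinase driven by the human skeletal actin promoter, HSA-Cre, removed it from muscle fibres, so other cells of the tissue kept the gene. Tamoxifen was started at 5 weeks of age and the knockouts reached the end point within a further 5 weeks. For body weight the study describes floxed littermates as untreated. It also lists floxed mice given tamoxifen without Cre, and floxed Cre mice without tamoxifen. For the control mice sequenced here the use of tamoxifen is not given in the sources used here. An effect of tamoxifen and of the deletion therefore cannot be told apart.

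Muscle uses a particular set of glycolytic enzymes. Fast fibres, which work in short bursts, hold large amounts of the muscle isoforms of phosphofructokinase, aldolase, enolase, phosphoglycerate mutase and lactate dehydrogenase, and of glycogen phosphorylase, the enzyme that frees glucose units from glycogen. Phosphorylase kinase switches the phosphorylase on when calcium rises during contraction. For several steps another gene encodes the isoform found in other tissues, so the ratio of paired isoforms within a library describes which set of enzymes the RNA encodes.

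The libraries held 16017565 to 20361144 counts on genes, and values are given as CPM, counts brought to a common library size by TMM scaling, which also corrects for the composition of the RNA. The targeted gene Grpel1 lay between 59.9 and 71.9 CPM in all 8 libraries, so its whole-gene count does not check the labels. Of 9 skeletal myofibre genes, which include fast fibre genes such as Myh4, 7 were lower and 2 (Myh1 and Des) higher. Their median log2 fold change was -1.49, and their sum was 206606 to 266060 CPM in controls and 75290 to 105258 CPM in knockouts. Myh1, the myosin of fast IIx fibres, rose from a mean of 7246 to 16074 CPM (log2 fold change 1.15). All 7 genes listed for fast IIb fibres were lower, some of them in the myofibre list too and some shared by other fast fibres. Their summed level was 160118 to 215252 CPM in controls and 41270 to 60572 CPM in knockouts. Of 6 slow fibre genes 5 were higher (93.4 to 164 against 383 to 1518 CPM). Of 6 measured genes of satellite and regenerating muscle cells, 4 were higher, from a sum of 32.9 to 39.9 CPM to one of 762 to 1610 CPM, carried mostly by the embryonic and neonatal myosins Myh3 and Myh8. Adipocyte markers passed the test in 0 of 8 genes, but their sum was 1186, 723, 36.1 and 1110 CPM in controls 1 to 4 and 1975, 925, 445 and 1000 CPM in knockouts 1 to 4, so control 3 and knockout 3 held the least in their groups. Endothelial markers were lower in 5 of 6 genes and fibroblast markers in 4 of 6. Macrophage markers were higher in 1 of 8 genes (Cd68), with sums of 78.6 to 201 CPM in controls and 163 to 300 CPM in knockouts. Of 3 measured neutrophil genes 1 was higher (S100a8), with sums of 0.458 to 4.2 CPM in controls and 17.3 to 37.8 CPM in knockouts. The knockout sums were mostly S100a8 (mean 22.8 CPM), and the groups overlapped for S100a9 and Csf3r. Over all genes tested 21.1% were called lower and 23.6% higher, at the threshold given below. The part of these shifts in the results on glycolytic genes was not tested, except where a value is given, and in bulk tissue fewer cells of a type and less RNA per cell cannot be told apart.

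Most genes of the pathway were lower in Grpel1 skm-/- muscle and a minority was higher. With the quasi-likelihood test of edgeR, its p-values adjusted by Benjamini-Hochberg over all 14012 genes (written as edgeR adjusted p, with SE for the standard error) and a threshold of 0.01, 22 of the 38 genes were lower, 7 were higher and 9 did not pass. Over all genes tested, 21.1% were called lower, 23.6% higher and 44.7% either way, so the share of the pathway called lower, 57.9%, stood above that background and the share called higher, 18.4%, below it. The median log2 fold change (knockout over control) was -0.97 for the 38 genes and 0.07 for all genes. A fall of at least 1 on the log2 scale with a called difference was seen in 18 of the 38, against 7.69% of all genes, and such a rise in 5, against 9.83%. The CPM of the groups did not overlap for 30 of the 38 genes, 23 lower and 7 higher, where 53.4% of all genes did not overlap, 24.4% lower and 29% higher. These 38 genes took 7.16%, 5.84%, 6.14% and 6.18% of all gene counts in controls 1 to 4 and 3.85%, 3.70%, 3.94% and 3.57% in knockouts 1 to 4. Every knockout library thus gave the pathway a smaller share than every control library, a mean of 3.77% ± 0.162 against 6.33% ± 0.575 (SD, n = 4 each).

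**Figure D1:**
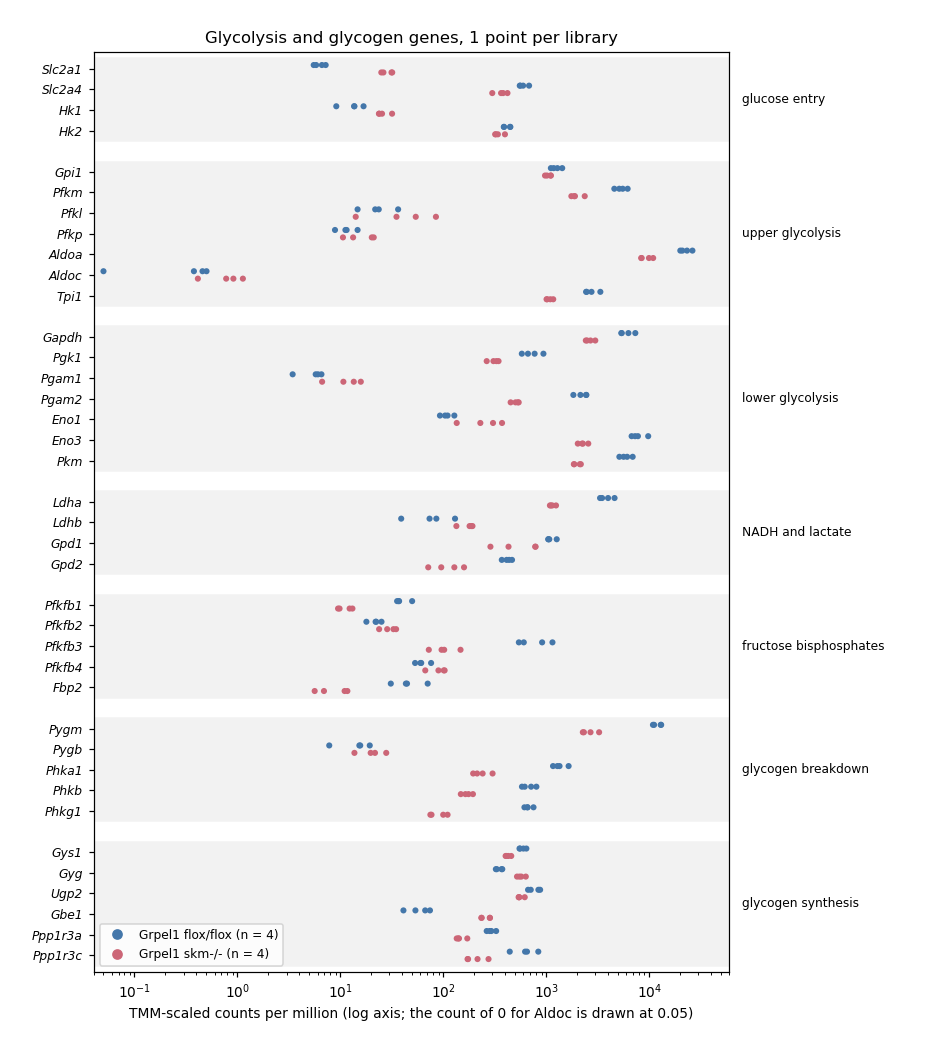
TMM-scaled CPM (log axis) of the 38 genes in each of the 4 Grpel1 flox/flox and 4 Grpel1 skm-/- libraries, 1 point per library, grouped by the step of the pathway. The groups are apart for 30 genes; the genes with the highest counts, such as Aldoa, Pygm and Eno3, lie to the left in the knockouts, while low ones such as Slc2a1, Gbe1 and Hk1 lie to the right.

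The muscle isoforms were mostly lower, while the isoforms of other tissues were more often higher than lower. Among the 12 muscle isoforms 11 were lower (91.7%, against 21.1% of all genes) and 0 higher (against 23.6%), and Hk2 was the single one that did not pass. Their median log2 fold change was -1.77, beside -1.49 for the myofibre genes listed above and -2.3 for the fast IIb fibre list. The 12 include Fbp2 (-2.42), Phka1 (-2.52) and Phkg1 (-2.89), which enter no pair and fell most in the class. The median of the class thus lies lower than that of the paired muscle isoforms alone. Among the 10 isoforms of other tissues 5 were higher (Slc2a1, Hk1, Pgam1, Eno1 and Ldhb), 1 was lower (Ppp1r3c) and 4 did not pass, with a median of 1.02. These shares were 50% higher, against 23.6% of all genes, and 10% lower, against 21.1%. The 5 became 3 without control 3, knockout 1, knockout 2 or knockout 4, and 4 without any other single library. With library totals alone they were 7. The 16 genes of neither class followed the muscle isoforms more often than not, with 10 lower (62.5%), 2 higher (Gyg and Gbe1, 12.5%) and a median of -1.08. The division into these classes was made with those earlier results known too.

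**Figure D2:**
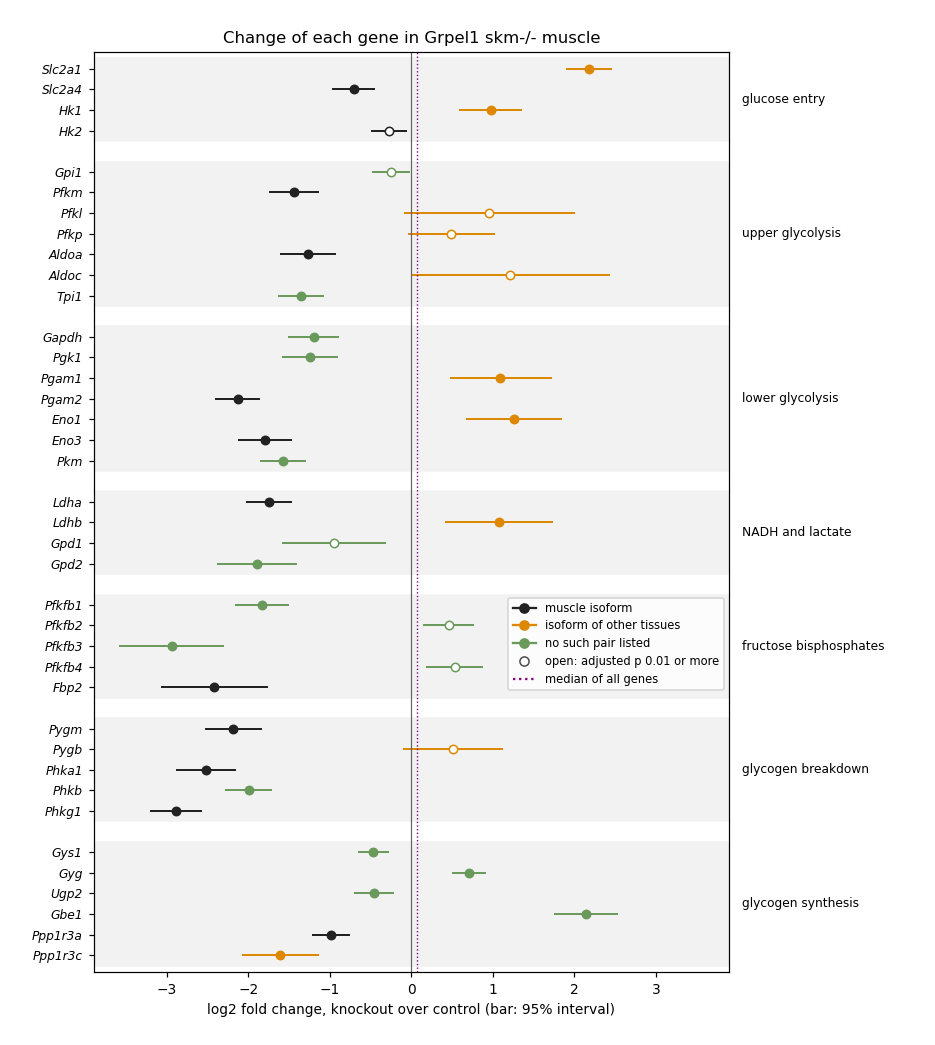
Log2 fold change of each gene with its 95% interval from edgeR, coloured by isoform class, with open points for genes at an adjusted p of 0.01 or more and a dotted line at the median of all genes, 0.07. Muscle isoforms lie between -2.89 and -0.28, and isoforms of other tissues between -1.61 and 2.18, Ppp1r3c being the one of these left of 0.

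Glucose entry was marked by a rise of the transporter and hexokinase that muscle normally holds at low level. Slc2a1 (Entrez Gene 20525, chr4:119108745-119137330 in GRCm38), the transporter GLUT1 found in most growing cells, was at 5.82, 7.20, 5.51 and 6.62 CPM in controls 1 to 4 and 31.4, 25, 26.2 and 31.9 CPM in knockouts 1 to 4. All knockouts lay far above all controls, a log2 fold change of 2.18 (SE 0.12, edgeR adjusted p = 5.8e-07) and, with Gbe1 at 2.14, 1 of the 2 largest rises among the 38 genes, whose order turns without control 1, control 4 or knockout 4 (2.21 and 2.27 without control 4). Slc2a4, the insulin-responsive transporter GLUT4, was at 681, 553, 561 and 596 CPM in controls and 381, 420, 364 and 299 CPM in knockouts. The groups were again apart, in the other direction (log2 fold change -0.71, SE 0.11, edgeR adjusted p = 4.4e-04), but with library totals alone as the scaling the value was -0.04. Per kilobase of exon, GLUT4 mRNA still exceeded GLUT1 mRNA in the knockouts, at 130 ± 17.9 against 11.1 ± 1.37 CPM per kb (SD, n = 4).

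Hexokinases trap glucose in the cell by phosphorylating it. Hk1, the widely expressed form that sits on mitochondria, was at 9.13, 13.6, 13.7 and 16.8 CPM in controls and 23.7, 31.8, 23.9 and 25.4 CPM in knockouts. It was higher in every knockout, by 0.97 on the log2 scale (SE 0.17, edgeR adjusted p = 7.1e-04). Hk2, the main muscle hexokinase, had a mean of 417 ± 33.8 CPM in controls and 345 ± 35.8 CPM in knockouts (SD, n = 4), with overlapping groups and an edgeR adjusted p of 0.029. Its log2 fold change of -0.28 passed without knockout 2 (-0.36, edgeR adjusted p = 0.0063) and turned to 0.40 with library totals alone, so its direction rests on the scaling.

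In upper glycolysis, from glucose 6-phosphate to the triose phosphates, 3 of 7 genes were lower and 0 higher. These shares were 42.9% and 0%, against 21.1% and 23.6% of all genes. Pfkm, the muscle phosphofructokinase and the committed step of the pathway, was at 6174, 4585, 5120 and 5530 CPM in controls and 1900, 1754, 2365 and 1864 CPM in knockouts. The groups were well apart (log2 fold change -1.44, SE 0.14, edgeR adjusted p = 1.2e-05). Aldoa, the muscle aldolase, was at 26300, 20063, 23306 and 21002 CPM in controls and 9951, 8449, 10927 and 8362 CPM in knockouts. It fell by 1.27 on the log2 scale (SE 0.15, edgeR adjusted p = 5.6e-05) and remained the gene of the pathway with the most RNA per kilobase in both groups, at 12427 ± 1523 and 5166 ± 680 CPM per kb (SD, n = 4). Tpi1, triose phosphate isomerase, fell by 1.36 on the log2 scale (SE 0.12, edgeR adjusted p = 8.6e-06), from 2439 to 3354 CPM in controls to 1007 to 1169 CPM in knockouts. Gpi1, which interconverts glucose and fructose 6-phosphates, had 1109 to 1429 CPM in controls and 973 to 1109 CPM in knockouts, and its log2 fold change of -0.25 did not pass (edgeR adjusted p = 0.051) and became 0.42 with library totals alone.

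The counterparts of Pfkm and Aldoa did not pass. Pfkl, the liver phosphofructokinase, was at 21.8, 23.6, 14.7 and 36.4 CPM in controls and 84.8, 54.0, 14.1 and 35.1 CPM in knockouts, so knockout 3 lay below every control while knockouts 1 and 2 lay above them all. Its log2 fold change of 0.96 (95% interval -0.07 to 1.99) had an edgeR adjusted p of 0.099. Control 3 and knockout 3, the lowest libraries for Pfkl in their groups, were also those with the fewest adipocyte marker counts. With the mean adipocyte marker level as a covariate the value was 0.52 (edgeR adjusted p = 0.33). Without control 3 and knockout 3 together it was 1.03 (edgeR adjusted p = 0.024), and without knockout 3 alone 1.22 (edgeR adjusted p = 0.013). Pfkp, the platelet form, had 8.87 to 14.7 CPM in controls and 10.6 to 21.1 CPM in knockouts (log2 fold change 0.49, edgeR adjusted p = 0.092), again lowest in control 3 and knockout 3. Its span overlaps the opposite-strand gene Pitrm1 by 285 bases, and Pitrm1 had more counts in all, 8364 against 2209, so the count of Pfkp is uncertain. Aldoc, the brain aldolase, was near the limit of detection, with 0, 7, 7 and 6 counts in controls and 27, 17, 10 and 23 counts in knockouts (log2 fold change 1.21, edgeR adjusted p = 0.077).

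Lower glycolysis, the ATP-yielding stretch from glyceraldehyde 3-phosphate to pyruvate, changed in all 7 genes, 5 lower and 2 higher. That was 71.4% lower and 28.6% higher, against 21.1% and 23.6% of all genes. Gapdh, the dehydrogenase often used as a reference gene, was at 7332, 5412, 6282 and 5359 CPM in controls and 2690, 2493, 2995 and 2423 CPM in knockouts. It was lower in every knockout by 1.20 on the log2 scale (SE 0.13, edgeR adjusted p = 3.6e-05). Pgk1, phosphoglycerate kinase, fell by 1.25 (SE 0.15, edgeR adjusted p = 5.9e-05), and Pkm, pyruvate kinase, whose splice forms the gene counts do not separate, fell by 1.57 (SE 0.12, edgeR adjusted p = 3.6e-06), both on the log2 scale. Of the windows of 75 bases in the longest coding transcripts of Gapdh and Pgk1, 80.3% and 67.5% recur in other annotated genes, 121 for Gapdh and 4 for Pgk1, and multimapping reads were left out by the authors, so their levels are uncertain.

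For the enolases and the phosphoglycerate mutases the muscle isoform fell and its counterpart rose. Eno3, the muscle enolase, was at 9779, 7292, 7773 and 6750 CPM in controls and 2271, 2025, 2560 and 2230 CPM in knockouts (log2 fold change -1.80, SE 0.14, edgeR adjusted p = 4.0e-06). Eno1, the enolase of most other tissues, was at 104, 110, 92.8 and 128 CPM in controls and 372, 304, 135 and 229 CPM in knockouts. Eno3 was lower and Eno1 higher in every knockout, with knockout 3 just above the highest control for Eno1 (log2 fold change 1.26, SE 0.26, edgeR adjusted p = 0.0021). With the adipocyte covariate the value for Eno1 was 1.06 (edgeR adjusted p = 0.0077), and without control 3 and knockout 3 it was 1.35 (edgeR adjusted p = 3.4e-04). Of the windows of Eno1, 65.4% recur in other genes, Eno1b first among them, so its level is uncertain.

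Pgam2, the muscle mutase, was at 2454, 2148, 2435 and 1834 CPM in controls and 530, 451, 540 and 503 CPM in knockouts (log2 fold change -2.13, SE 0.12, edgeR adjusted p = 5.3e-07). Pgam1, the mutase of other tissues, was at 6.06, 5.76, 3.44 and 6.55 CPM in controls and 15.8, 13.5, 6.65 and 10.7 CPM in knockouts. The groups did not overlap for either gene, but for Pgam1 knockout 3 lay only just above control 4. Its log2 fold change of 1.09 (SE 0.28, edgeR adjusted p = 0.0064) stayed between 0.89 and 1.25 when single libraries were left out and lost the call without any of controls 1, 2 and 3 or knockouts 1, 2 and 4, at edgeR adjusted p values of 0.012, 0.017, 0.016, 0.019, 0.019 and 0.014. With the adipocyte covariate it was 0.80 (edgeR adjusted p = 0.0088). Pgam1 shares 40.6% of its windows with other annotated genes.

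Pgam2 and Pgam1 had the pair ratio with the largest difference in value between the groups, though other pairs lay close to it. Their promoters are shown for that reason, as 250 bases before the annotated start in RefSeq (GRCm38.p6). They lie at chr11:5803797-5804046 on the minus strand for Pgam2 and chr19:41911621-41911870 on the plus strand for Pgam1. Capitals mark the E-box CANNTG, the letters bound by myogenic factors such as MyoD and by many others, and the MEF2 motif, both searched on both strands.

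Pgam2: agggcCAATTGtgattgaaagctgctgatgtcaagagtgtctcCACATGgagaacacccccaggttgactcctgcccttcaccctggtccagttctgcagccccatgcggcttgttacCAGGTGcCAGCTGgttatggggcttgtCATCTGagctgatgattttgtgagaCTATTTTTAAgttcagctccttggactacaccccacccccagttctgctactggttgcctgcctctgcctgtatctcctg

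Pgam1: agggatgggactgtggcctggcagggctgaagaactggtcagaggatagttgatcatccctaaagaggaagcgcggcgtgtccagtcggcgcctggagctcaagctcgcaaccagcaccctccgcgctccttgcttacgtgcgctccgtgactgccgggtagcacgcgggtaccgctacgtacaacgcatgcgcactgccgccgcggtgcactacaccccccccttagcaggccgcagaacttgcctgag

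The Pgam2 window held 5 E-boxes and 1 MEF2 match, the latter 80 to 71 bases before the start, and the Pgam1 window held 0 of either. Promoters were found for 11 of the 12 muscle isoforms and all 10 counterparts. For genes with several annotated starts, such as Pfkm (4), Aldoa (3), Eno1 (3) and Hk1 (2), the one nearest the deposited gene start was taken. Which start is used in this tissue was not tested. An E-box was present in 10 of 11 muscle promoters and 3 of 10 counterpart promoters, against 66.2% of 32851 mouse promoters of the same length, and a MEF2 match in 2 and 0, against 2.92%. The median observed over expected CpG content was 0.19 for the muscle promoters, 0.67 for the counterparts and 0.37 for all. ACGTG, the core letters of hypoxia response elements, was in 5 of 11 and 4 of 10 (16.6% of all), and GGGCGG in 3 of 11 and 4 of 10 (32.7% of all). A match describes the letters and not binding.

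Lactate and NADH handling had 2 genes lower (50%, against 21.1% of all genes), 1 higher (25%, against 23.6%) and 1 that did not pass. Ldha, the lactate dehydrogenase subunit of fast muscle, was at 4608, 3488, 3987 and 3333 CPM in controls and 1244, 1086, 1145 and 1111 CPM in knockouts (log2 fold change -1.75, SE 0.12, edgeR adjusted p = 1.8e-06). Ldhb, the heart subunit, was at 39.0, 130, 73.5 and 85.6 CPM in controls and 180, 134, 187 and 192 CPM in knockouts. Ldha was well apart between the groups, while for Ldhb knockout 2 lay just above control 2. The log2 fold change of Ldhb, 1.08 (SE 0.29, edgeR adjusted p = 0.0094), did not pass with the adipocyte covariate (1.07, edgeR adjusted p = 0.020), nor without control 3 (1.03, edgeR adjusted p = 0.026), control 4 (1.10, edgeR adjusted p = 0.021), knockout 1 (1.04, edgeR adjusted p = 0.024), knockout 2 (1.16, edgeR adjusted p = 0.013), knockout 3 (1.0, edgeR adjusted p = 0.029) or knockout 4 (1.0, edgeR adjusted p = 0.031). It also missed the threshold with RLE size factors (1.03, edgeR adjusted p = 0.012) and without control 3 and knockout 3 together (0.94, edgeR adjusted p = 0.058).

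The glycerol phosphate shuttle carries electrons of cytosolic NADH to the respiratory chain through Gpd1 in the cytosol and Gpd2 in the inner mitochondrial membrane. Gpd2 was at 465, 370, 436 and 412 CPM in controls and 159, 128, 71.4 and 95.5 CPM in knockouts. It was lower in every knockout (log2 fold change -1.89, SE 0.22, edgeR adjusted p = 4.3e-05). Gpd1 was at 1264, 1045, 1053 and 1070 CPM in controls and 788, 781, 287 and 430 CPM in knockouts. The knockouts spread into a higher and a lower pair, all below the controls, and the log2 fold change of -0.96 (SE 0.28) missed the threshold at an edgeR adjusted p of 0.015. It passed without knockout 1 (-1.17, edgeR adjusted p = 0.0067), knockout 2 (-1.17, edgeR adjusted p = 0.0072) or knockout 3 (-0.77, edgeR adjusted p = 0.0092), with RLE size factors (-1.01, edgeR adjusted p = 0.0099) and in DESeq2 (-1.01, adjusted p = 2.9e-04). With library totals alone it was -0.27 (edgeR adjusted p = 0.41).

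Fructose 2,6-bisphosphate is the strongest allosteric activator of phosphofructokinase, and the PFKFB enzymes both make and remove it. Pfkfb3, the form with the highest kinase activity, was at 912, 542, 1149 and 605 CPM in controls and 147, 102, 96.2 and 72.3 CPM in knockouts. It was several times lower in every knockout and fell by 2.94 on the log2 scale (SE 0.28, edgeR adjusted p = 1.4e-05), a 7.67-fold difference. Phkg1, at -2.89, was within this error, and the order of these 2 genes turns without control 1, control 3, knockout 3 or knockout 4 (without control 3, -2.71 for Pfkfb3 and -2.83 for Phkg1). Pfkfb1, the liver and muscle form, fell by 1.83 (SE 0.14, edgeR adjusted p = 3.6e-06), from 35.6 to 49.8 CPM in controls to 9.5 to 13.1 CPM in knockouts. Fbp2, the muscle fructose bisphosphatase that opposes phosphofructokinase, was at 70.5, 30.9, 44.4 and 43.3 CPM in controls and 11.7, 5.63, 6.93 and 11.0 CPM in knockouts. The groups were apart here too (log2 fold change -2.42, SE 0.29, edgeR adjusted p = 6.0e-05).

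Pfkfb2, the heart form, and Pfkfb4, the testis form, lay higher in the knockouts without passing the threshold. The log2 fold change of Pfkfb2 was 0.46 (95% interval 0.16 to 0.76, edgeR adjusted p = 0.015), and 0.54 without knockout 2 (edgeR adjusted p = 0.0060). That of Pfkfb4 was 0.53 (95% interval 0.20 to 0.86, edgeR adjusted p = 0.011), and 0.64 without control 1 (edgeR adjusted p = 0.0051) or knockout 2 (edgeR adjusted p = 0.0015). Pfkfb4 also passed in DESeq2 (0.48, adjusted p = 0.0064), and both passed with upper-quartile factors (edgeR adjusted p = 0.0094 for Pfkfb2 and 0.0071 for Pfkfb4) and with library totals alone. An opposite-strand gene, Yod1, overlaps the span of Pfkfb2 by 4747 bases, and whether strand was used in the counting is not stated, but Yod1 had 397 counts in all against 4132 for Pfkfb2.

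Glycogen breakdown had the lowest median of the steps, -2.19 on the log2 scale over its 5 genes, of which 4 were lower. This share of 80% stood beside 21.1% of all genes. Pygm, muscle glycogen phosphorylase, was at 13073, 11161, 12943 and 10879 CPM in controls and 2692, 2267, 3262 and 2322 CPM in knockouts. Every knockout lay several times below every control (log2 fold change -2.19, SE 0.15, edgeR adjusted p = 1.7e-06). Per kilobase, Pygm stood at 4186 ± 402 CPM per kb in controls, beside Eno3 at 4924 ± 824 and Gapdh at 4075 ± 619, which differed by no more than their spread, and at 918 ± 160 in knockouts, below Eno3 at 1416 ± 137 and Gapdh at 1771 ± 171 (SD, n = 4).

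The phosphorylase kinase that activates Pygm fell in each of its 3 subunits among the 38 genes. Phkg1, the catalytic subunit of muscle, was at 656, 659, 752 and 614 CPM in controls and 99.8, 74.9, 110 and 76.8 CPM in knockouts (log2 fold change -2.89, SE 0.14, edgeR adjusted p = 2.9e-07). Phka1, the regulatory alpha subunit of muscle, was at 1649, 1164, 1346 and 1282 CPM in controls and 241, 195, 301 and 213 CPM in knockouts (log2 fold change -2.52, SE 0.16, edgeR adjusted p = 1.0e-06). Both were lower by more than 5-fold in the fit, at 7.41-fold and 5.72-fold. Phkb, the regulatory beta subunit shared by tissues, fell by 1.99 on the log2 scale (SE 0.12, edgeR adjusted p = 9.7e-07). The liver-type subunits, which are outside the 38 genes and were picked after their values were seen, lay the other way, with Phka2 higher (log2 fold change 0.72, edgeR adjusted p = 0.0015) and Phkg2 at 0.58 without passing (edgeR adjusted p = 0.012, no overlap). Pygb, the brain phosphorylase, was at 15.6, 15.3, 7.80 and 19.3 CPM in controls and 27.9, 19.7, 13.7 and 21.7 CPM in knockouts. Its groups overlapped, it was again lowest in control 3 and knockout 3, and its log2 fold change of 0.51 did not pass (edgeR adjusted p = 0.13).

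Glycogen synthesis was split, with 4 of 6 genes lower (66.7%, against 21.1% of all genes) and 2 higher (33.3%, against 23.6%). Gbe1, the branching enzyme, was at 66.7, 53.6, 41.0 and 74.2 CPM in controls and 284, 236, 283 and 234 CPM in knockouts. It rose in every knockout by 2.14 on the log2 scale (SE 0.17, edgeR adjusted p = 4.2e-06). Gyg, glycogenin, the protein primer on which a glycogen particle starts, was at 324, 331, 374 and 368 CPM in controls and 549, 520, 633 and 573 CPM in knockouts. The groups were apart with little spread (log2 fold change 0.70, SE 0.09, edgeR adjusted p = 7.8e-05).

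The enzymes that make and join the glucose units fell by smaller amounts than those of breakdown, and the 95% interval of Gys1 (-0.65 to -0.29) lay clear of those of the 4 breakdown genes that fell. Gys1, muscle glycogen synthase, was at 600, 550, 557 and 641 CPM in controls and 411, 403, 457 and 428 CPM in knockouts (log2 fold change -0.47, SE 0.08, edgeR adjusted p = 6.6e-04). Ugp2, which makes UDP-glucose, was at 839, 666, 707 and 872 CPM in controls and 547, 618, 539 and 545 CPM in knockouts (log2 fold change -0.46, SE 0.10, edgeR adjusted p = 0.0038). Both groups were apart, but with library totals alone as the scaling the values turned to 0.20 for Gys1 and 0.21 for Ugp2. Ugp2 also missed the threshold without control 1 (-0.41), knockout 1 (-0.46) or knockout 4 (-0.46), at an edgeR adjusted p of 0.012 each.

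Ppp1r3a and Ppp1r3c, subunits that bring protein phosphatase 1 to glycogen and so favour synthesis, both fell. Ppp1r3a, the subunit particular to striated muscle, was at 326, 264, 293 and 282 CPM in controls and 142, 140, 171 and 135 CPM in knockouts (log2 fold change -0.99, SE 0.10, edgeR adjusted p = 1.6e-05). Ppp1r3c, found in more tissues, was at 837, 623, 650 and 442 CPM in controls and 215, 275, 172 and 174 CPM in knockouts (log2 fold change -1.61, SE 0.21, edgeR adjusted p = 9.7e-05). This was the pair whose ratio differed least, and the counterpart was the more abundant per kilobase in both groups, at 238 ± 60.4 against 40.9 ± 3.70 CPM per kb in controls and 78.1 ± 18.2 against 20.6 ± 2.29 CPM per kb in knockouts (SD, n = 4). Their promoters, shown for contrast with those of the mutases, lie at chr6:14755275-14755524 and chr19:36736605-36736854, both on the minus strand of GRCm38.p6, with E-boxes and MEF2 matches in capitals as before.

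Ppp1r3a: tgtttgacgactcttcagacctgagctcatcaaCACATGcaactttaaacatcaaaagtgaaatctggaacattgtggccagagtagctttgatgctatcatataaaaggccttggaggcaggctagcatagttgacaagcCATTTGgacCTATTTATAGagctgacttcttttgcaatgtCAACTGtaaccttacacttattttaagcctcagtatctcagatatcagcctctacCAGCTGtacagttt

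Ppp1r3c: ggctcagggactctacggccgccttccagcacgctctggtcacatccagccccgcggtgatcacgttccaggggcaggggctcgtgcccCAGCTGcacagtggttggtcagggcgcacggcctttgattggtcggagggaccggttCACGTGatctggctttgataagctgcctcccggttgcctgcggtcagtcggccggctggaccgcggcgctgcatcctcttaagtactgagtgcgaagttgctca

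The Ppp1r3a window held 4 E-boxes and 1 MEF2 match and that of Ppp1r3c 2 E-boxes and 0 MEF2 matches. The CpG content over expectation was 0.10 for Ppp1r3a and 0.77 for Ppp1r3c, beside 0.06 for Pgam2 and 0.86 for Pgam1.

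To compare isoforms free of the scaling between libraries, the log2 ratio of the muscle isoform over its counterpart, each per exon length, was taken within each library for 10 pairs, and the groups were compared by a two-sided exact permutation test over the 70 assignments of 4 against 4 libraries, whose smallest p is 0.0286. The ratio was lower in the knockouts for 8 of 10 pairs at this smallest exact p (0.0357 adjusted over the 10 pairs), with no overlap between the groups, and higher for 0. Pfkm enters 2 of the pairs, so these are not separate observations. For the 2 remaining pairs, Pfkm/Pfkl and Ppp1r3a/Ppp1r3c, the groups overlapped at an exact permutation p of 0.0571.

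The log2 ratio of Pgam2 to Pgam1 was 9.67, 9.55, 10.5 and 9.14 in controls and 6.08, 6.07, 7.36 and 6.56 in knockouts. This difference of -3.19 was the largest of the pairs in value, a 9.11-fold smaller ratio. With SDs of 0.558 in controls and 0.603 in knockouts, its order against the pairs with differences close to it is not settled. The log2 ratio of Eno3 to Eno1 was 6.70, 6.19, 6.53 and 5.86 in controls and 2.76, 2.88, 4.39 and 3.43 in knockouts, a difference of -2.96. The log2 ratio of Ldha to Ldhb was 6.32, 4.18, 5.20 and 4.72 in controls and 2.23, 2.45, 2.05 and 1.97 in knockouts, a difference of -2.93. In each of these pairs the lowest control stood clear of the highest knockout. Knockout 3 had the highest ratio of its group for the mutases and the enolases but not for lactate dehydrogenase.

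The log2 ratio of Slc2a4 to Slc2a1 differed by -2.89, from a range of 6.12 to 6.73 in controls to one of 3.10 to 3.94 in knockouts. That of Pygm to Pygb differed by -2.74, from 9.55 to 11.1 in controls to 7.01 to 8.31 in knockouts. That of Hk2 to Hk1 differed by -1.28, from 4.43 to 5.32 in controls to 3.35 to 3.55 in knockouts. These 3 did not overlap. The ratio of Pfkm to Pfkp differed by -1.90 (9.01 to 9.62 against 6.89 to 8.26). Without control 1 or control 3 the difference was -1.82 or -1.80 at an exact permutation p of 0.0571, though the groups still did not overlap. Pfkm to Pfkl differed by -2.20 (7.53 to 8.72 against 4.77 to 7.67), with the overlap made by knockout 3, and by -2.78 without knockout 3 (exact permutation p = 0.0286). Aldoa to Aldoc differed by -2.87, but control 1, with a log2 ratio of 20 against 16 to 16.3 in the other controls, had an Aldoc count of 0. Without control 1 the difference was -1.91 (exact permutation p = 0.0571), and the other controls still lay above the knockouts, at 13.7 to 15.3. Ppp1r3a to Ppp1r3c differed by 0.61 in the opposite direction (-2.77 to -2.06 against -2.39 to -1.42).

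**Figure D3:**
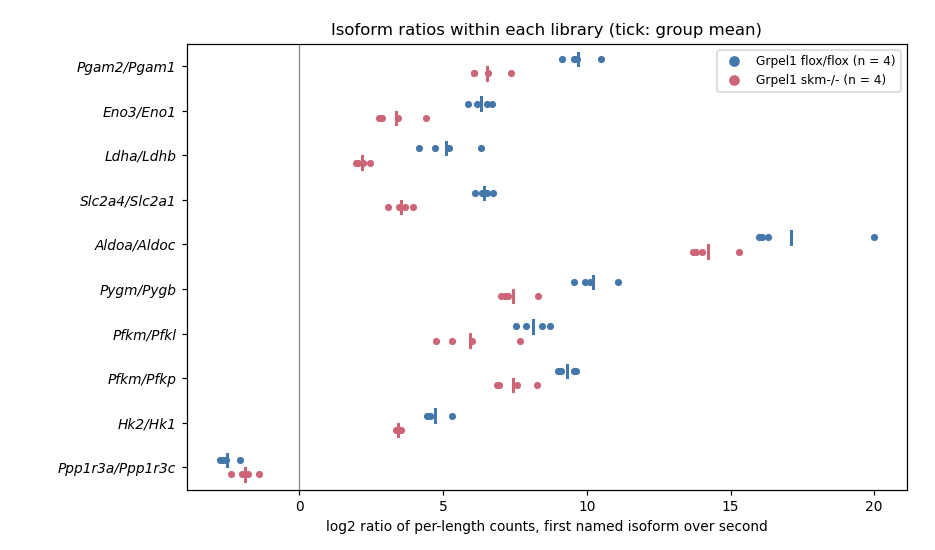
Log2 ratio of per-length counts within each library for 10 isoform pairs, 1 point per library and a tick at the mean of each group. Knockout points lie left of all control points in 8 pairs, overlap them for Pfkm/Pfkl, where 1 knockout library sits at 7.67, and lie mostly to the right for Ppp1r3a/Ppp1r3c.

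Outside the Ppp1r3 pair the muscle isoform still made up most of the RNA of each pair. Ldhb took 1.24%, 5.23%, 2.66% and 3.66% of lactate dehydrogenase RNA per length in controls and 17.6%, 15.4%, 19.4% and 20.4% in knockouts. This was the largest share reached by any counterpart outside the Ppp1r3 pair, a mean of 18.2% ± 2.18 against 3.20% ± 1.68 (SD, n = 4). Eno1 took 0.953% to 1.69% of enolase RNA in controls and 12.9%, 12%, 4.55% and 8.48% in knockouts. Hk1 went from a mean of 3.77% ± 0.902 to 8.48% ± 0.464 of the hexokinase pair and Slc2a1 from 1.15% ± 0.204 to 8.04% ± 1.84 of the transporter pair (SD, n = 4). Pgam1 and Pygb remained minor, at 1.14% ± 0.407 and 0.605% ± 0.201 in knockouts, and Pfkl had 3.53%, 2.46%, 0.487% and 1.52% in knockouts against 0.236% to 0.537% in controls. Because the multimapping reads of Eno1 and Pgam1 were left out, their shares are uncertain.

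**Figure D4:**
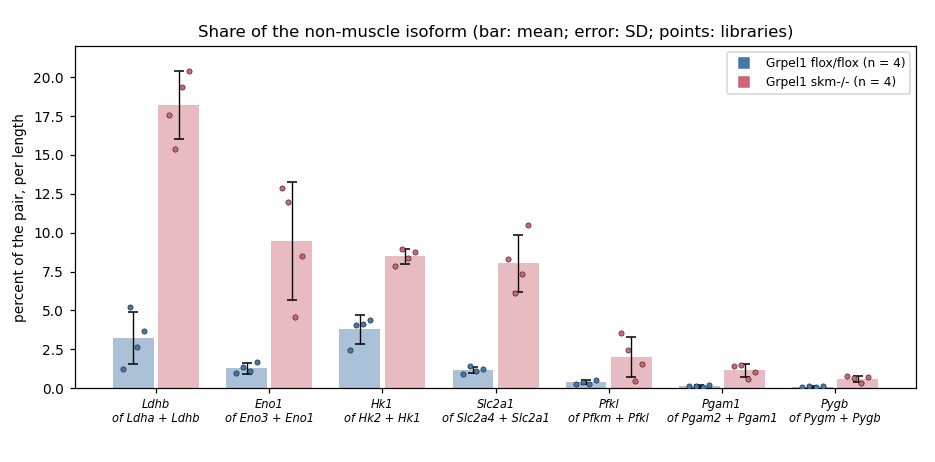
Share of the counterpart in the RNA of its pair, in percent of per-length counts, with bars for the mean, error bars for the SD and points for the 4 libraries of each group. Ldhb reaches 15.4% to 20.4% in knockouts against at most 5.23% in controls, while Pgam1 and Pygb stay below 2% in all libraries.

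Other genes of the pathway, taken from lists drawn up by function, were also more often lower than higher. Of 30 further glycolysis and glycogen genes 15 were lower (50%, against 21.1% of all genes) and 6 higher (20%, against 23.6%), with a median log2 fold change of -0.59. Bpgm, which makes 2,3-bisphosphoglycerate, fell by 2.06 on the log2 scale (SE 0.13, edgeR adjusted p = 1.0e-06), and the phosphoglucomutase Pgm2, which links glycogen to glycolysis, fell by 1.94 (SE 0.14, edgeR adjusted p = 1.8e-06). Pgm2l1 (-1.99) and Calm3 (-1.93), one of the genes for the calmodulin that serves as a subunit of phosphorylase kinase, also fell. Stbd1, which anchors glycogen to membranes for delivery to lysosomes, rose by 2.10 on the log2 scale (SE 0.18, edgeR adjusted p = 6.8e-06), from 77.4 to 144 CPM in controls to 398 to 494 CPM in knockouts. Eno2 (1.26), the neuronal enolase, Pgm1 (0.77) and Adpgk (0.76), an ADP-dependent glucokinase, were the other higher genes named by size, and Eno2 reached 1.83 CPM at most.

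Pyruvate and lactate handling had 11 of 22 genes lower (50%, against 21.1% of all genes) and 3 higher (13.6%, against 23.6%). The median log2 fold change was -0.48. Slc16a3, the lactate exporter MCT4 of fast fibres, was at 635, 390, 456 and 453 CPM in controls and 89.6, 100, 77.9 and 65.8 CPM in knockouts. Slc16a1, the transporter MCT1 of oxidative fibres and many other cells, was at 38.5, 46.7, 37.3 and 45.8 CPM in controls and 101, 102, 98.3 and 119 CPM in knockouts. They moved in opposite directions with no overlap, at log2 fold changes of -2.54 (SE 0.18, edgeR adjusted p = 1.7e-06) and 1.32 (SE 0.10, edgeR adjusted p = 2.8e-06). Emb, a partner protein of such transporters, rose by 2.76 on the log2 scale, and Pdk3, a pyruvate dehydrogenase kinase, by 1.28 from a level of at most 1.01 CPM. Pdk4, the kinase that restrains pyruvate oxidation in fasting, was at 1569, 2680, 2480 and 2002 CPM in controls and 534, 88.1, 446 and 170 CPM in knockouts, a log2 fold change of -2.82 (SE 0.50, edgeR adjusted p = 8.4e-04). Pdpr (-1.68), which regulates the opposing phosphatase, and Gpt2 (-1.49), which exchanges pyruvate and alanine, fell as well.

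In the branches that leave glycolysis 7 of 18 pentose phosphate, hexosamine and polyol genes were higher (38.9%, against 23.6% of all genes) and 6 lower (33.3%, against 21.1%), with a median log2 fold change of 0.49. In the oxidative pentose phosphate branch, the source of much cytosolic NADPH, Pgls was at 14.4, 15.4, 14.2 and 14.6 CPM in controls and 39.7, 33.7, 28.3 and 32.2 CPM in knockouts. G6pdx was at 11.4, 8.05, 3.29 and 13.4 CPM in controls and 49.5, 32.5, 13.7 and 26.6 CPM in knockouts, and Pgd at 31.8, 27.6, 17.8 and 44.2 against 195, 179, 88.6 and 107 CPM. All 3 were higher in every knockout (log2 fold changes 1.19, 1.76 and 2.23, edgeR adjusted p = 7.4e-06, 0.0059 and 1.8e-04), and G6pdx and Pgd, unlike Pgls, were lowest in control 3 by a wide margin, the library with the fewest adipocyte marker counts. Akr1b8, an aldose reductase relative, was higher by 2.53 on the log2 scale, while Sord (-0.95), sorbitol dehydrogenase, Akr1b3 (-0.86), aldose reductase, H6pd (-0.75) and Khk (-0.53), ketohexokinase, were lower.

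**Figure D5:**
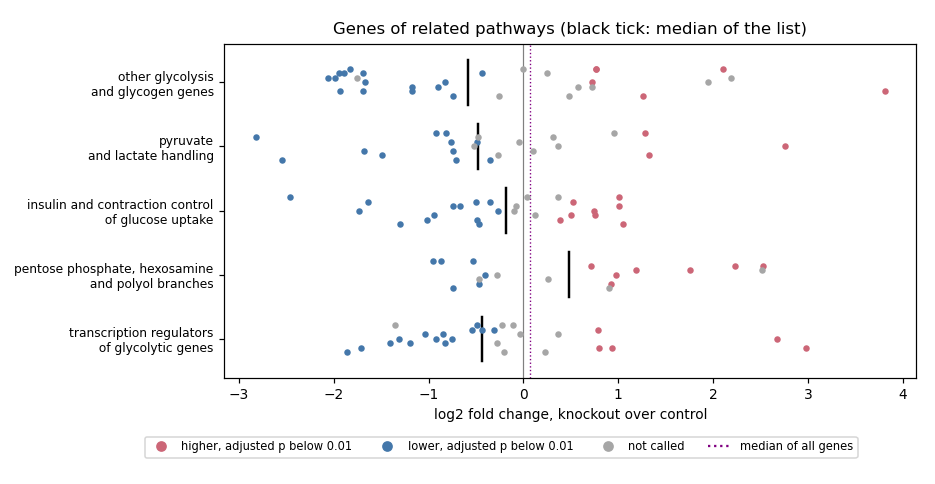
Log2 fold change of single genes in 5 lists related to the pathway, coloured by call, with a black tick at the median of each list and a dotted line at the median of all genes, 0.07. The lists of other glycolysis and glycogen genes and of pyruvate and lactate handling lie mostly left of the line, at medians of -0.59 and -0.48, and the pentose phosphate, hexosamine and polyol list has a median of 0.49.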

How the data were processed

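RNA of QF muscle was measured in 4 knockout and 4 control libraries, each from a mouse with its own label. The authors trimmed reads with cutadapt, mapped them with STAR 2.5.4b to GRCm38 and counted read pairs over exons by Rsubread, from which reads that mapped to several places, chimeras and duplicates were excluded. The deposited raw counts per gene were the basis of all tests, and the lowest total of a gene in the table was 51. The FPKM values deposited by the authors were used only for an alternative to the isoform ratios. The table also holds the authors' fold changes, p-values and mean counts from DESeq2 1.32.0, which were not used. The annotation release and strand setting are not given in the sources used here.

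Counts of all 14012 genes were tested with edgeR 4.0.16 (quasi-likelihood, TMM, group as the only term, Benjamini-Hochberg adjustment, threshold 0.01) in R 4.3.3. Standard errors were taken from the F statistic. Isoform ratios used counts plus 0.5 per exon width and exact permutation. CPM per kb is CPM divided by exon width. Depth was 16017565 to 20361144 counts, and a count of 0 allows up to 3 counts, 0.119 to 0.242 CPM, for counting error only. Shared windows of 75 bases were searched in GENCODE M21, and promoters came from RefSeq.

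The members and lists were chosen with earlier results of these data known. All 38 genes were accounted for. From each related list the 4 higher and 4 lower genes with the largest called change and no overlap between the groups were named, except for 1 gene that is not reported here. Alternatives covered scaling, low-count filtering, DESeq2 1.42.0, the threshold, the prior count, FPKM, the replicate number as a block, an adipocyte covariate and single libraries left out. Leaving out control 3 and knockout 3 together was chosen after seeing the data.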

Additional observations from a re-analysis of the deposited data

Results flagged for a closer look

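In 5 of 96 groups of 4 values, 1 library stood apart from the other 3 by Dixon's criterion. Chance meets it in about 1 of 20 independent groups, but these groups share genes and libraries, so the number cannot be judged by that rate. All flagged values except that of Ugp2 fell in control 1. That library also gave the pathway its largest share of counts, 7.16% against 5.84% to 6.18% in the other controls. Control 1 had the highest Gpd1 level of the controls, 1264 CPM against 1045 to 1070, and the highest Pfkfb1 level, 49.8 CPM against 35.6 to 37.2. In control 1 the Hk2/Hk1 log2 ratio was 5.32 against 4.43 to 4.55 in the other controls, where Hk1 was lowest at 9.13 CPM. The Aldoa/Aldoc log2 ratio of control 1 was 20 against 16 to 16.3, with an Aldoc count of 0 in that library. Among the knockouts, Ugp2 was at 618 CPM in knockout 2 against 539 to 547 in the others.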

How the results depend on the processing

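The counts of 22 lower and 7 higher genes moved to 19 and 12 with library totals alone as the scaling, which also shifted the median of all genes from 0.07 to 0.73 on the log2 scale and that of the 38 genes from -0.97 to -0.30. Of all genes, 8498 were then called higher and 873 lower. Under it Hk2 (0.40), Gpi1 (0.42), Gys1 (0.20) and Ugp2 (0.21) turned direction, and Slc2a4 lost its call (-0.04, edgeR adjusted p = 0.78). In the other settings the counts were 21 to 25 lower and 5 to 9 higher. They were 23 and 6 with RLE size factors, 22 and 9 with upper-quartile factors, 22 and 7 after edgeR's filter on low counts, which removed Aldoc, 25 and 8 with DESeq2, 24 and 9 at an adjusted p under 0.05, 22 and 6 with the adipocyte covariate, and 22 and 6 without control 3 and knockout 3, chosen after seeing the data. With single libraries left out they were 21 to 24 and 5 to 7. Ratios were lower in 6 to 9 of 10 pairs with single libraries left out, 8 with a prior count of 2 and 7 with deposited FPKM, where the aldolase pair gave no value, and higher in 0 throughout. Pfkm/Pfkp without control 1 or control 3, and Aldoa/Aldoc without control 1, missed the threshold although their groups did not overlap. With 3 against 3 libraries the exact permutation test cannot go below 0.1. With the replicate number as a block 23 genes were lower and 8 higher, as Gpd1 (-1.07, edgeR adjusted p = 0.0045), Pfkfb4 (0.52, 0.0042) and Pygb (0.53, 0.0099) passed and Ldhb (1.18, 0.010) did not. Same-numbered libraries deviated with correlations of 0.118, 0.003, 0.42 and 0.138. For numbers 1, 3 and 4 no other partner of either library correlated better, though control 4 and knockout 1 were at 0.112. For number 2 others did, such as control 2 with knockout 1 (0.097). Whether the numbers pair the animals is not given in the labels and cannot be told from these values. Depth limits Aldoc most, with at most 27 counts in a library.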

Other observations

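Of 26 measured genes for the control of glucose uptake by insulin and contraction, 13 were lower (50%, against 21.1% of all genes) and 8 higher (30.8%, against 23.6%), with a median log2 fold change of -0.18. They include subunits of AMP-activated protein kinase, the energy sensor of the cell. Prkab2, the beta subunit of muscle, was at 827, 602, 827 and 488 CPM in controls and 121, 95.4, 166 and 117 CPM in knockouts, and Prkag3, the gamma subunit of fast muscle, was at 177, 197, 231 and 182 CPM in controls and 55.3, 60.3, 59.4 and 62.5 CPM in knockouts. Prkab1, the beta subunit of other tissues, was at 10.4, 9.10, 9.73 and 9.58 CPM in controls and 21, 20.7, 20.8 and 18 CPM in knockouts. The log2 fold changes were -2.46, -1.73 and 1.05 (edgeR adjusted p = 7.2e-06, 4.7e-07 and 5.4e-06). Of the other subunits, given here after their values were seen, the alpha subunit Prkaa2 of muscle was lower (-1.02) and Prkaa1 higher (0.50), while the gamma subunits Prkag1 (-0.36) and Prkag2 (-0.75) were lower as Prkag3 was. Irs1 (-1.30), the insulin receptor substrate, and Tbc1d1 (-1.64), which restrains GLUT4 traffic, fell, while Akt1 (1.01), Arrdc4 (1.01) and Vamp2 (0.76) rose. For Tbc1d1 control 4 was at 113 CPM, against 46.8 to 49.3 CPM in the other controls and 17.3 to 23.1 CPM in knockouts.

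Of 27 transcription regulators known to act on glycolytic genes, 14 were lower (51.9%, against 21.1% of all genes) and 5 higher (18.5%, against 23.6%), with a median log2 fold change of -0.43. Myc was at 3.47, 3.40, 2.93 and 3.28 CPM in controls and 25.3, 24, 23.8 and 30.4 CPM in knockouts, a log2 fold change of 2.98 (SE 0.12, edgeR adjusted p = 8.5e-08). Esrrg, an oestrogen-related receptor of oxidative muscle, was at 8.56, 20.8, 15.7 and 23.5 CPM in controls and 112, 103, 114 and 109 CPM in knockouts (log2 fold change 2.67, SE 0.24, edgeR adjusted p = 9.5e-06). Tead4 (0.94) and Eya3 (0.80) were also higher. Maf (-1.31), Mafa (-1.41) and Nr4a1 (-1.86) were lower, each with no overlap between the groups.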
